A study of Mus musculus with 2 samples.

Results

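The genes described are 6 direct transcriptional targets of Notch signalling, Hes1, Hes5, Hey1, Hey2, Heyl and Nrarp, of 32285 genes listed in single-cell RNA sequencing of newborn mouse kidney. They were taken by name from the gene list, and all 6 were found once and passed the filter on low counts in the fit across cell classes. The data comprise 2 libraries of whole kidney at postnatal day 0, replicate 1 and replicate 2, both labelled Rbpj c/+ ; Foxd1cre/+. They are read here as carrying 1 conditional Rbpj allele and a Cre recombinase driven by Foxd1, a gene of stromal progenitors. Both libraries therefore form 1 group (n = 2), other genotypes were not analysed here, and no effect of the genotype was tested. The labels do not say how many animals each suspension came from, so the spread between the libraries may be technical in part.

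Notch receptors are cut after they bind a ligand on a neighbouring cell, and the freed intracellular domain joins the DNA-binding protein RBPJ and Mastermind-like coactivators to switch on target genes. HES and HEY proteins are basic helix-loop-helix repressors that carry the signal on, and NRARP, an ankyrin repeat protein, binds the intracellular domain complex and dampens it. In the kidney, Notch acts when nephron precursors leave the progenitor state and take up proximal and podocyte fates, in the balance of principal and intercalated cells of the collecting duct, in arteries, and in mural and renin cells.

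Promoters of 3 members, Hes5, Hey2 and Nrarp, were found in the RefSeq sequences of GRCm38.p6 that were used, and all 3 are shown. No window was found there for Hes1, Hey1 or Heyl. Each line runs 5′ to 3′ on the gene's strand, from 250 bases before the start to 5 bases after it, at chr4:154960673-154960927 (plus strand) for Hes5, chr10:30842779-30843033 (minus strand) for Hey2 and chr2:25180508-25180762 (plus strand) for Nrarp. Capitals mark matches to GTGGGAA, a core of the RBPJ recognition sequence, or to its reverse complement TTCCCAC.
Hes5: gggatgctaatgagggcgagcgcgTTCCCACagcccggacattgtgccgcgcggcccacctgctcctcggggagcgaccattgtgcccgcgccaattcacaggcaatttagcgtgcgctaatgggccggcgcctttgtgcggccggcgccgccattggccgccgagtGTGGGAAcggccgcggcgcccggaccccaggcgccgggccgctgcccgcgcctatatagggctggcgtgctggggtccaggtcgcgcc
Hey2: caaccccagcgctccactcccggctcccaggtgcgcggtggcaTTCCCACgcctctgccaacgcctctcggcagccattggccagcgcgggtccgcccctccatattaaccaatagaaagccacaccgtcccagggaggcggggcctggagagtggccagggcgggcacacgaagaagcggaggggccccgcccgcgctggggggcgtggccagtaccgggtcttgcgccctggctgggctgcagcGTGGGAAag
Nrarp: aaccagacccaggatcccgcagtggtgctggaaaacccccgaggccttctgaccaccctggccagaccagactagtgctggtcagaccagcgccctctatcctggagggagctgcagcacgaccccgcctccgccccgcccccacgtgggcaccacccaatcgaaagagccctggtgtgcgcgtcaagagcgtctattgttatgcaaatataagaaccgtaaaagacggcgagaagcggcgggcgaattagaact
The Hes5 window held 2 matches, with their first bases 226 and 83 bases before the start, and the Hey2 window held 2, at 207 and 4 bases before it. The Nrarp window held 0. Of 32851 promoter windows, 6.38% held at least 1 match on either strand and 0.256% held 2 or more, searched over 250 bases before to 50 after each start. A match is a run of letters, not a measured binding site. In the GENCODE M21 annotation of GRCm38, Hes1 lies at chr16:30064384-30067796 (plus), Hes5 at chr4:154960923-154962371 (plus), Hey1 at chr3:8663359-8667256 (minus), Hey2 at chr10:30832359-30842801 (minus), Heyl at chr4:123233556-123249875 (plus) and Nrarp at chr2:25180758-25183339 (plus). All 6 are protein-coding. Hes5 overlaps Gm20421 and Nrarp overlaps Gm38287, both on the opposite strand, so their counts depend on strand-aware counting, which the sources used here do not state.

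Replicate 1 held 5529 and replicate 2 held 4206 barcodes kept as cells, with median depths of 15016 and 20007.5 unique molecular identifiers (UMIs, counts of single cDNA molecules), and 6 barcodes occurred in both. Cells were assigned to classes by fixed marker genes, none of them a Notch pathway gene. In all, 19 classes had at least 20 cells in both libraries, from 25 and 37 renin cells to 567 and 506 other endothelial cells. A class called after a cell type is a gate on its markers. Cdh6 Osr2 cells and Tfap2b Irx cells are named by their marker genes alone. The gates left 953 and 509 cells unassigned, and a further 127 and 79 cells that carried the markers of 2 unrelated classes were set aside. In every class other than the arterial gate, which is nested in the endothelial one, the median score of its own markers exceeded that of every other list in both libraries. Apart from the nested renin gate, this follows from the assignment and is no separate check of the gates. Each cell was placed in the class of its highest passing score. Near-empty barcodes, with at most 100 UMIs, give the make-up of free RNA: Hes1 made up 96.3 and 127 of every 1000000 of their UMIs (CPM) in replicates 1 and 2. The other members made up 1.47 to 19.1 CPM.

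Hes1, a repressor induced by Notch in many tissues, was found widely. Its level, in CPM over all UMIs of a class, was highest in collecting duct at 246 and 216 CPM (231 ± 21.6, mean ± SD, n = 2), from 1972 and 1593 UMIs. Intercalated cells (230 and 195 CPM), Tfap2b Irx cells (234 and 155 CPM) and other endothelial cells (186 and 189 CPM) followed. From collecting duct down to loop of Henle (125 and 121 CPM), 12 classes in all, each class overlapped the next in its range, so only classes further apart in this order were separate. Podocytes were lower at 70.5 and 48.8 CPM, immune cells had 14.6 and 19.9 CPM, and proximal tubule was last at 7.78 and 12.6 CPM. Proximal tubule lay below all other classes in both libraries, and below the 96.3 and 127 CPM of near-empty barcodes. Podocytes, smooth muscle (65.0 and 67.8 CPM) and immune cells were also below the near-empty level in both libraries. Nephron progenitors, pericytes, loop of Henle, stroma, Cdh6 Osr2 cells and erythroid cells were below it in replicate 2 only.

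To compare classes of unlike depth, each cell was thinned at random to 3000 UMIs. Hes1 was then seen in 47.8% (exact Clopper-Pearson 95% interval 39.9 to 55.8%) and 37.8% (29.6 to 46.5%) of collecting duct cells. In proximal tubule, the class with the least Hes1, it was seen in 3.54% and 3.38% of cells, with median depths before thinning of 35373 and 44393 UMIs against 25010 and 31806 in collecting duct. Without thinning the shares were 87.0% and 88.1% in collecting duct and 19.0% and 23.2% in proximal tubule. Intervals here and elsewhere cover counting error only.

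Hes5, a second repressor of this family that marks nephron precursors responding to Notch, was found mainly in 2 classes. Early nephron cells, gated on genes such as Wnt4 and Lhx1, had 40.0 and 48.8 CPM (376 and 275 UMIs). Cdh6 Osr2 cells had 48.1 and 20.1 CPM (751 and 239 UMIs). The libraries differed in Cdh6 Osr2 cells by more than in any other class with more than 5 Hes5 UMIs, and the range overlapped that of early nephron cells, so the first place is not settled. Tfap2b Irx cells had 5.12 and 4.21 CPM, close to the 2.83 and 4.91 CPM of near-empty barcodes. The other 16 classes each had at most 5 Hes5 UMIs in a library, and erythroid, immune, intercalated and renin cells had 0 in both. Early nephron held 30.4% and 46.1% of all Hes5 UMIs of kept cells, and Cdh6 Osr2 cells 60.8% and 40.0%. At 3000 UMIs per cell, Hes5 was seen in 11.1% and 14.7% of early nephron cells and in 8.87% and 4.09% of Cdh6 Osr2 cells, against 0 of 311 and 0 of 207 proximal tubule cells. By the floor of 3 counts, a count of 0 allows shares of cells with a Hes5 UMI at that depth of up to 0.965% and 1.45%, and the exact upper bounds are 1.18% and 1.77%. These limits are for thinned cells with a UMI, not for cells expressing the gene. Without thinning the shares were 30.7% and 34.7% in early nephron and 27.8% and 18.6% in Cdh6 Osr2 cells.

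Hey1, which acts in arterial and other Notch-dependent fates, had its highest levels in arterial endothelial cells (63.0 and 75.6 CPM, 69.3 ± 8.96, n = 2) and early nephron (63.7 and 55.9 CPM, 59.8 ± 5.47). The ranges of these classes overlapped. Podocytes had 30.3 and 24.4 CPM, Cdh6 Osr2 cells 25.3 and 14.9 CPM, and other endothelial cells 14.1 and 5.66 CPM. Nephron progenitors had 8.66 and 9.13 CPM, a level close to the 10.7 and 7.12 CPM of near-empty barcodes. Loop of Henle (0.409 and 0.584 CPM) and proximal tubule (0.707 and 0.771 CPM) had the lowest means over the libraries. The order at this level rests on few UMIs, and immune cells had 3 UMIs in replicate 1 and 0 in replicate 2. At 3000 UMIs per cell, Hey1 was seen in 14.6% and 23.2% of arterial endothelial cells and in 19.6% and 20% of early nephron cells. Without thinning the shares were 42.3% and 53.7% in arterial endothelial cells and 72.0% and 80.0% in early nephron. Proximal tubule had 0% and 0.483% at 3000 UMIs, and 2.57% and 3.38% unthinned.

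Hey2, an arterial and vascular smooth muscle member of the family, stood apart in renin cells. They had 63.7 and 101 CPM, from 20 and 69 UMIs in 25 and 37 cells, above every other class in both libraries. Pericytes (15.4 and 16.8 CPM), smooth muscle (10.6 and 19.7 CPM), arterial endothelial cells (7.91 and 15 CPM) and early nephron (8.62 and 5.50 CPM) followed, each overlapping its neighbour in this order. All other classes were at or below 3.39 CPM in both libraries. Thinned to 3000 UMIs, 20% and 27.0% of renin cells had a Hey2 UMI, against 0 of 311 and 0 of 207 proximal tubule cells. Unthinned, the shares were 40.0% and 59.5% of renin cells, with median depths of 12180 and 16939 UMIs, and 0.965% and 2.42% of proximal tubule cells.

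Heyl, known from vascular mural cells, was highest in pericytes at 125 and 121 CPM (123 ± 2.79, n = 2) and renin cells at 127 and 102 CPM (115 ± 17.9), whose ranges overlapped. Early nephron had 53.8 and 46.5 CPM, Cdh6 Osr2 cells 46.0 and 39.0 CPM and nephron progenitors 26.3 and 22.2 CPM. Each of these classes was below the one before it in both libraries. Collecting duct had 26.1 and 19.8 CPM. Smooth muscle differed between the libraries, at 7.84 and 23.0 CPM, from 14 and 64 UMIs. Arterial endothelial cells had 2.88 and 0.809 CPM and other endothelial cells 1.94 and 0.871 CPM, below the 13.9 and 15.2 CPM of near-empty barcodes. Among cells thinned to 3000 UMIs, 26.7% and 28.1% of pericytes had a Heyl UMI, against 0.965% and 0% of proximal tubule cells. The unthinned shares were 56.8% and 66.1% of pericytes and 8.36% and 6.76% of proximal tubule cells.

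Nrarp, the feedback inhibitor, was highest in renin cells at 150 and 185 CPM (168 ± 25.2, n = 2), from 47 and 127 UMIs, and no other compared class reached 50 CPM. Cdh6 Osr2 cells (40.4 and 40.7 CPM), early nephron (31.3 and 47.6 CPM), arterial endothelial (27.7 and 36.8 CPM), other endothelial (24.9 and 35.2 CPM) and distal convoluted or connecting tubule cells (27.0 and 25.5 CPM) formed a second tier with overlapping ranges. Nephron progenitors had 0.994 and 1.48 CPM and stroma 0.227 and 0.937 CPM, from 1 and 8 UMIs. Both were far below the 11.8 and 19.1 CPM of near-empty barcodes. In thinned cells, 36% and 32.4% of renin cells had an Nrarp UMI, against 0.643% and 0% of proximal tubule cells. The unthinned shares were 60.0% and 70.3%, against 5.14% and 11.1%.

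Over the 6 genes and 19 classes, 33 of 114 combinations reached 20 CPM in both libraries. The plot of levels by class sets them side by side.

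**Figure D1:**
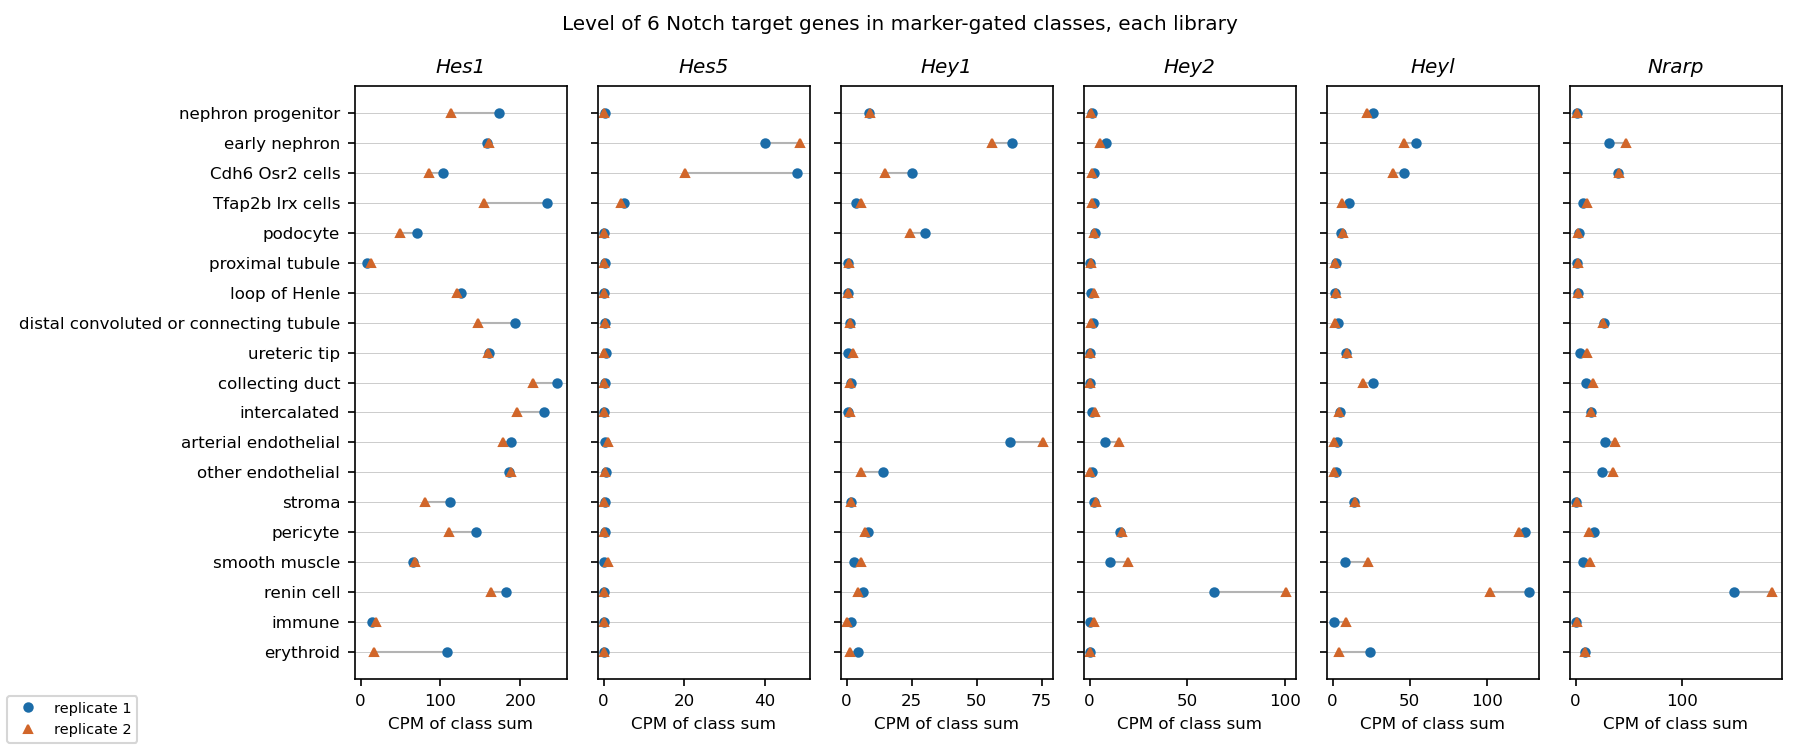
Level of each member (x axis, UMIs per 1000000 of the class sum (CPM), linear, a separate scale per gene) in 19 marker-gated classes (y axis). Circles are replicate 1 and triangles replicate 2, joined by a line. Hes1 spans most classes up to 246 CPM, Hes5 stands out in early nephron and Cdh6 Osr2 cells, and Hey2 and Nrarp stand out in renin cells (up to 101 and 185 CPM).

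Differences between neighbouring classes were tested on counts summed per library and class with edgeR's quasi-likelihood test, the library as a block and Benjamini-Hochberg adjustment over 17316 genes that were not gate markers (threshold 0.05). Most log2 fold changes (log2FC) are given with an approximate standard error (SE). It is the absolute log2FC divided by the square root of the test's F statistic. Of 66 member tests in 11 comparisons, 41 passed. Of all genes tested, 8.37% to 52.7% were called, depending on the comparison. The comparisons share classes (early nephron and stroma serve in several) and are not independent of each other.

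Early nephron against nephron progenitors, the step at which precursors become epithelial, had 5 of 6 members higher and 0 lower. Of all genes tested, 30% were called, 15.8% higher and 14.1% lower. Hes5 rose from 4 and 2 UMIs to 376 and 275 UMIs, a 221-fold difference in pooled level (counting interval 101 to 604), with edgeR log2FC 7.69 ± 0.47 (SE) and adjusted p = 3.38e-11. Nrarp rose by 4.93 ± 0.30 on the log2 scale (edgeR adjusted p = 1.80e-12), from 0.994 and 1.48 CPM to 31.3 and 47.6 CPM. Hey2 (log2FC 2.77 ± 0.49, adjusted p = 9.48e-05), Hey1 (2.71 ± 0.27, adjusted p = 1.69e-08) and Heyl (1.01 ± 0.28, adjusted p = 0.00622) were also higher, each in both libraries. Hes1 was the exception, with log2FC 0.14 ± 0.20 (adjusted p = 0.651) and values of -0.13 and 0.50 in the separate libraries. The median log2FC of the members was 2.74, against -0.04 over all genes tested. Of the Notch pathway list of 35 other genes, 31 were tested, and 6 were higher and 4 lower. As a list, the 31 pathway genes had a median log2FC of -0.23, against -0.04 over all genes tested. The largest changes were in the ligands Jag1 (log2FC 4.67 ± 0.27, from 7.08 and 5.05 to 159 and 157 CPM) and Dll1 (4.58 ± 0.27), the receptor Notch1 (2.88 ± 0.16) and the glycosyltransferase Lfng (2.45 ± 0.25), which modifies Notch receptors. Their adjusted p-values in edgeR ran from 2.64e-13 to 3.90e-08.

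Beyond the early nephron class, Cdh6 Osr2 cells had 3 members lower and 0 higher, beside 34% of all genes called, 18.2% higher and 15.9% lower. Hey2 (log2FC -2.09 ± 0.47, adjusted p = 0.00101), Hey1 (-1.59 ± 0.26, adjusted p = 2.08e-05) and Hes1 (-0.78 ± 0.21, adjusted p = 0.00424) were lower than in early nephron by edgeR. Nrarp (0.07 ± 0.22, adjusted p = 0.853) and Heyl (-0.25 ± 0.27, adjusted p = 0.518) did not pass, and neither did Hes5 (-0.46 ± 0.27, adjusted p = 0.212), whose separate libraries went opposite ways at 0.26 and -1.27. Of the 31 pathway genes, 3 were higher and 6 lower. The leading ones were Dtx1, a ubiquitin ligase of the Notch pathway (log2FC -1.12 ± 0.38), the receptors Notch4 (-1.01 ± 0.29) and Notch3 (-0.97 ± 0.29), and the coactivator Maml3 (-0.85 ± 0.28).

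In Tfap2b Irx cells, 5 members were lower than in early nephron and 0 higher, beside 40.7% of all genes called, 21.9% higher and 18.8% lower. Hey1 fell by 3.71 on the log2 scale (SE 0.31, edgeR adjusted p = 4.26e-10), from 63.7 and 55.9 to 3.70 and 5.69 CPM, and Hes5 fell by 3.30 (SE 0.33, adjusted p = 4.29e-08). Heyl (log2FC -2.61), Nrarp (-2.14) and Hey2 (-2.04) were lower as well, with edgeR adjusted p-values of 2.0e-07, 1.12e-07 and 0.00145. Hes1 did not pass here (log2FC 0.25 ± 0.20, adjusted p = 0.362). Of the pathway genes, 9 were higher and 8 lower: Lfng fell by 4.34 and Dll1 by 2.89 on the log2 scale, Mfng by 3.01 from 0.958 and 1.07 CPM, and the receptor Notch3 was higher (1.38 ± 0.27).

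Podocytes, the filtration cells, were the class in which all 6 members were lower than in early nephron. In this comparison 52.7% of all genes were called, 25.4% higher and 27.3% lower. Hes5 had 0 and 1 UMIs in podocytes, a pooled ratio of 0.00184 (counting interval 4.66e-05 to 0.0103) to early nephron. Nrarp fell by 3.78 on the log2 scale (SE 0.31, edgeR adjusted p = 1.05e-10) and Heyl by 3.08 (SE 0.34, adjusted p = 2.86e-08). Hey1 had the smallest of these differences, at -1.12 ± 0.26 (adjusted p = 7.56e-04), and Hes1 (-1.42) and Hey2 (-1.40) were close to it. The pathway list had 9 higher and 8 lower, led by Dll1 (-4.33 ± 0.30), Dtx1 (-3.89 ± 0.55), Jag1 (-3.34 ± 0.26) and Notch3 (-2.92 ± 0.39).

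Proximal tubule against Cdh6 Osr2 cells gave 5 members lower and 0 higher, beside 47.8% of all genes called, 24.3% higher and 23.6% lower. Hes5 fell from 751 and 239 UMIs to 3 and 2, a pooled ratio of 0.00601 (counting interval 0.00195 to 0.0141). Hey1 (log2FC -4.42 ± 0.40), Heyl (-4.16 ± 0.37), Nrarp (-4.16 ± 0.29) and Hes1 (-2.89 ± 0.23) were lower, with edgeR adjusted p-values from 1.32e-11 to 9.61e-10. Hey2, already at 2.05 and 1.26 CPM in Cdh6 Osr2 cells, gave -1.24 ± 0.61 (adjusted p = 0.0989). Of the pathway genes 6 were higher and 11 lower, among them Lfng (-5.72 ± 0.35), Dll1 (-4.23 ± 0.27), Notch3 (-2.88 ± 0.41) and Jag1 (-2.70 ± 0.24).

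Loop of Henle cells, which take up salt in the distal nephron, had 4 members lower than Tfap2b Irx cells and 0 higher. Here 26.4% of all genes were called, 13.3% higher and 13.1% lower. Hes5 had 0 and 1 UMIs against 54 and 34, Hey1 fell by 2.92 on the log2 scale (SE 0.57, edgeR adjusted p = 3.27e-04), Nrarp by 1.97 (SE 0.35) and Heyl by 1.89 (SE 0.44). Hes1 had 125 and 121 against 234 and 155 CPM, with log2FC -0.41 ± 0.20 (adjusted p = 0.142). The pathway list had 1 higher and 8 lower, led by Dll1 (-3.93 ± 0.46), Lfng (-1.74 ± 0.63), Dtx1 (-1.59 ± 0.47) and Notch1 (-1.57 ± 0.16).

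Collecting duct had 3 members higher than ureteric tip and 0 lower, beside 31.5% of all genes called, 16.9% higher and 14.6% lower. Heyl rose by 1.46 on the log2 scale (SE 0.37, edgeR adjusted p = 0.00285), from 8.59 and 9.18 to 26.1 and 19.8 CPM. Nrarp (log2FC 0.85 ± 0.31, adjusted p = 0.0396) and Hes1 (0.62 ± 0.21, adjusted p = 0.0232) passed narrowly, and neither passed without the library block (adjusted p = 0.13 and 0.072). The pathway list had 10 higher and 4 lower, with the ligands Dll4 (log2FC 3.30 ± 0.88, from 2 and 0 UMIs in ureteric tip) and Dll1 (2.27 ± 0.43) higher and Lfng (-2.72 ± 0.45) and Maml3 (-1.02 ± 0.28) lower. Intercalated cells, the acid-base cells beside the principal cells, had 1 member higher and 1 lower than collecting duct, beside 21.2% of all genes called, 9.52% higher and 11.7% lower. Heyl fell by 2.33 (SE 0.43, edgeR adjusted p = 2.37e-04), from 26.1 and 19.8 to 4.61 and 4.30 CPM. Hey2 was higher (log2FC 2.86 ± 0.93, adjusted p = 0.029) on 4 and 8 UMIs against 2 and 2, a pooled ratio of 7.61 with a counting interval of 2.31 to 32.4. Hes1 (-0.09 ± 0.21) and Nrarp (0.22 ± 0.29) did not pass. Among 3 pathway genes higher and 4 lower, Dll4 (2.0 ± 0.40) and Dll1 (1.0 ± 0.29) were higher and the receptors Notch3 (-1.39 ± 0.29) and Notch2 (-1.34 ± 0.23) lower.

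Arterial endothelial cells had 2 members higher than the other endothelial cells and 0 lower, beside 15.4% of all genes called, 6.51% higher and 8.86% lower. Hey1 rose from 14.1 and 5.66 to 63.0 and 75.6 CPM (log2FC 2.77 ± 0.29, edgeR adjusted p = 1.02e-07). Hey2 rose from 12 and 4 UMIs to 22 and 37 UMIs in the smaller arterial class (log2FC 3.60 ± 0.56, adjusted p = 4.23e-05). The size differed between the libraries, at 2.14 and 3.67 for Hey1 and 2.35 and 4.34 for Hey2. Nrarp (0.04 ± 0.24) and Hes1 (-0.10 ± 0.21) did not pass. Of the pathway genes 7 were higher and 0 lower, led by the ligands Jag1 (4.51 ± 0.27, from 10.3 and 6.32 to 236 and 161 CPM) and Jag2 (3.01 ± 0.23), then Notch3 (1.71 ± 0.45) and Dll4 (1.36 ± 0.26).

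Pericytes, which wrap capillaries, had 4 members higher than stroma and 0 lower, where 9.2% of all genes were called, 3.82% higher and 5.38% lower. Nrarp rose by 4.45 on the log2 scale (SE 0.44) from 1 and 8 UMIs to 71 and 54, a pooled ratio of 21.1 (counting interval 10.8 to 47.3). Heyl rose by 3.06 (SE 0.31), from 14.1 and 14.6 to 125 and 121 CPM, and the edgeR adjusted p was 1.31e-07 for both. Hey2 (2.49 ± 0.48, adjusted p = 9.20e-04) and Hey1 (2.16 ± 0.48, adjusted p = 0.00332) were higher in both libraries, while Hes1 gave 0.40 ± 0.21 (adjusted p = 0.30). Smooth muscle had 2 members higher than stroma and 0 lower, beside 8.37% of all genes called, 4.19% in each direction: Nrarp (3.94 ± 0.51, adjusted p = 8.07e-06) and Hey2 (2.47 ± 0.50, adjusted p = 0.00164). Heyl gave 0.23 ± 0.37 there, with opposite signs in the libraries. Of the pathway genes, 6 were higher and 2 lower in pericytes, with Dll4 (3.02 ± 0.79), Jag1 (1.81 ± 0.30) and Notch1 (1.57 ± 0.16) higher and Dlk1, a non-canonical ligand, lower (-2.21 ± 0.61). In smooth muscle 3 were higher and 1 lower, with Jag1 (2.21 ± 0.32), the gamma-secretase subunit Psen2 (1.56 ± 0.30) and Notch3 (1.02 ± 0.28) higher and Dlk1 lower (-2.67 ± 0.67). Dlk1 itself differed between the libraries in stroma, at 363 and 81.0 CPM.

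Hes1 and Hes5 passed in 4 and 5 of the 11 comparisons, and Hey1, Hey2, Heyl and Nrarp in 8 each. Beside these counts, 8.37% to 52.7% of all genes were called per comparison. Of 41 calls, 33 kept their call under a stricter marker gate, which left 38 to test. Those lost were Heyl in early nephron against nephron progenitors (log2FC 0.68, adjusted p = 0.127), Hey2 in podocytes (-0.57, adjusted p = 0.468), Cdh6 Osr2 cells (-1.63, adjusted p = 0.0651) and intercalated cells (2.81, adjusted p = 0.0523), and Nrarp in loop of Henle (-1.10, adjusted p = 0.121).

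**Figure D2:**
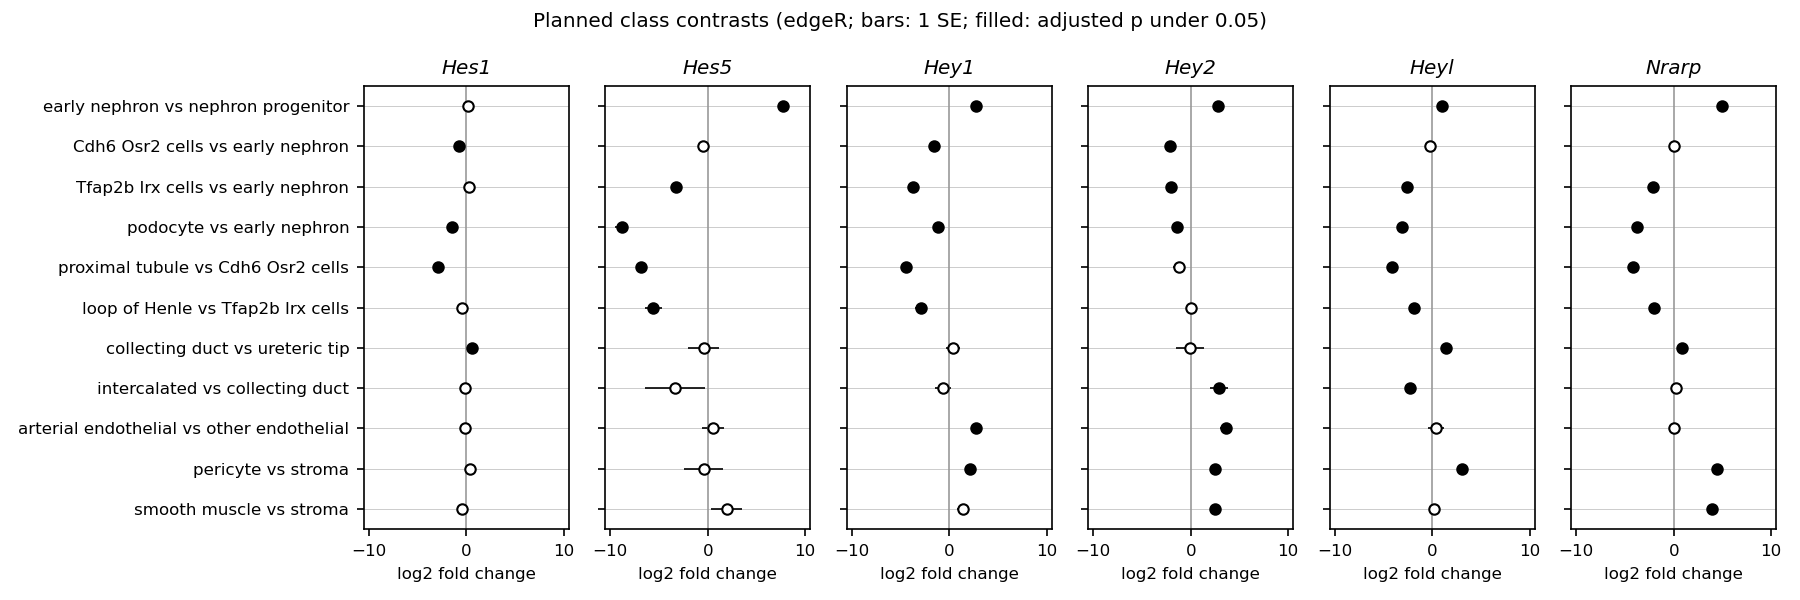
log2 fold change (x axis) of each member in 11 comparisons of classes (y axis) from edgeR, with bars of 1 approximate SE, taken from the F statistic. Filled points passed the adjusted threshold of 0.05 (41 of 66) and open points did not. Hes5 has the widest span, from 7.69 in early nephron to values near -8.84 in podocytes, where the fit rests on 0 and 1 UMIs.

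The number of the 6 targets in each cell was counted next. At 3000 UMIs per cell, 4 classes had 2 or more targets in at least 10% of their cells in both libraries. Renin cells came first with 32.0% (exact interval 14.9 to 53.5%) and 37.8% (22.5 to 55.2%), 8 of 25 and 14 of 37 cells. Early nephron had 21.7% and 16.0%, pericytes 13.5% and 12%, and arterial endothelial cells 11.5% and 16.8%. Cdh6 Osr2 cells had 14.4% and 8.18%. Proximal tubule (0.322% and 0%), loop of Henle (0% and 0%) and immune cells (0% and 0%) had almost none, although proximal tubule was among the deepest classes before thinning. Among cells with at least 10000 UMIs, thinned to that number, the shares were 67.2% and 52.7% in early nephron and 64.7% and 71.9% in renin cells. The renin values rest on 17 and 32 cells (exact intervals 38.3 to 85.8% and 53.3 to 86.3%). At this depth arterial endothelial cells had 44.6% and 54.7% and pericytes 46.3% and 34.3%. Cdh6 Osr2 cells had 43.8% and 36.9%, and proximal tubule 1.07% and 1.55%. Unthinned, 82.5% and 84.0% of early nephron cells, 84.0% and 86.5% of renin cells and 6.11% and 7.73% of proximal tubule cells had 2 or more targets.

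**Figure D3:**
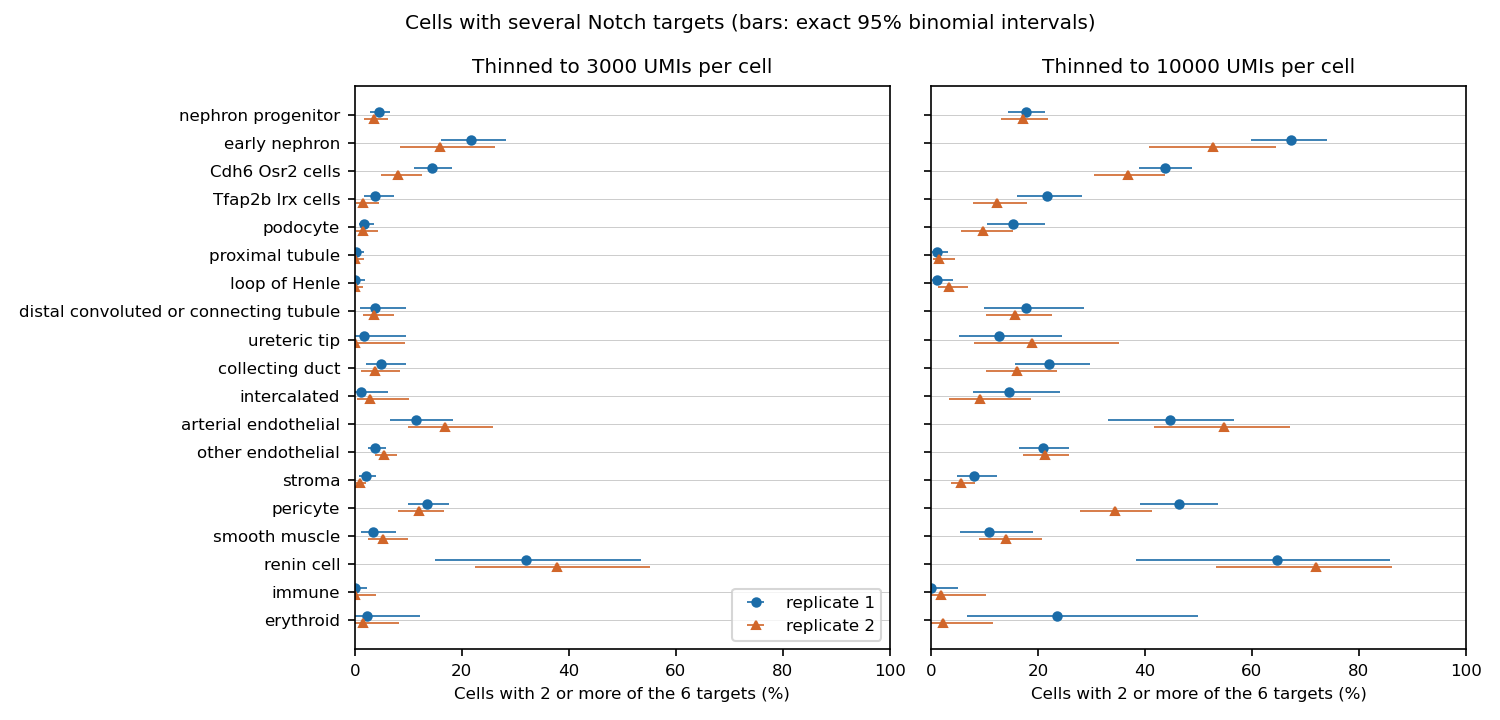
Share of cells with 2 or more of the 6 targets (x axis, percent) in each class (y axis), with cells thinned to 3000 UMIs (left) or to 10000 UMIs (right). Circles and triangles are replicates 1 and 2 and bars are exact 95% binomial intervals. Renin cells, early nephron and arterial endothelial cells are the 3 highest classes of replicate 2 in both panels, with arterial cells just above early nephron, and proximal tubule lies near 0. In replicate 1 arterial cells lie below pericytes in both panels (11.5% against 13.5%, and 44.6% against 46.3%). They also lie below Cdh6 Osr2 cells (14.4%) in the left panel of replicate 1.

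Examples of combinations of 3 or more targets are given here by class, from cells of unlike depth. Whether each was the most frequent of its class is not stated. In collecting duct, 98 and 75 unthinned cells held 2 or more targets, and 35 and 31 held 3 or more. Without thinning, all of Hes1, Hes5, Hey1, Heyl and Nrarp, with no Hey2, were found together in 50 (12%) and 15 (6.82%) Cdh6 Osr2 cells and in 19 (10.1%) and 10 (13.3%) early nephron cells. Renin cells held another combination: Hes1, Hey2, Heyl and Nrarp were found together, with no Hes5 or Hey1, in 14 of 37 cells of replicate 2 (37.8%) and 5 of 25 cells of replicate 1. In nephron progenitors the combination of Hes1, Hey1 and Heyl alone was found in 50 (9.73%) and 31 (9.94%) cells. In collecting duct it was Hes1, Heyl and Nrarp, in 21 (13.0%) and 24 (17.8%) cells, and in arterial endothelial cells Hes1, Hey1 and Nrarp, in 13 (10.0%) and 14 (14.7%) cells. Hey1 in nephron progenitors was close to the level of near-empty barcodes. Nrarp in collecting duct was below it, at 9.37 and 16.0 CPM against 11.8 and 19.1. The part of free RNA in these combinations was not tested. All 6 targets were found together in 8 and 3 Cdh6 Osr2 cells, 5 and 7 early nephron cells and 5 and 2 Tfap2b Irx cells, and in no cell of the other classes. These counts come from unthinned cells, and early nephron was deeper (medians of 25026 and 37613 UMIs) than pericytes (10732 and 16777.5). With every cell at 10000 UMIs, the most targets in a cell were 6 and 4 in Cdh6 Osr2 cells. They were 5 and 4 in early nephron and 3 and 4 in Tfap2b Irx cells.

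Whether 2 targets were found in the same cells more often than their separate shares give was described for 15 pairs in 19 classes, 285 combinations. The expected number is the product of both shares in the class and library. A combination was assessed where that number was at least 5 cells in both libraries, and was counted as above or below only where both libraries were on the same side. Cells are not replicates, and no p is given. The share above the product among other gene pairs of similar detection was not determined. The counts below therefore do not show whether Notch targets differ from other genes in this respect. At 3000 UMIs per cell only 4 combinations could be assessed: Hes1 with Hey1 in arterial endothelial cells was just above (1.03 and 1.02), Hes1 with Heyl in nephron progenitors was below, and 2 were divided. The arterial pair fell below the product with cells of at least 6000 UMIs and was divided at 10000 UMIs, so its side is not settled. In nephron progenitors 2 pairs were above and 0 below at 10000 UMIs. With another random thinning to 3000 UMIs, 0 combinations of any class were below. The side of the progenitor pair is not settled either. From 1 library alone, 5 combinations were above without replicate 2 and 3 without replicate 1, so detection at that depth limits the question. With 10000 UMIs per cell, 40 could be assessed: 26 were above, 0 below and 14 divided. Unthinned, with the product taken within 5 bins of depth and summed, 88 could be assessed: 55 were above, 3 below and 30 divided. Of the 40 assessed in both ways, 21 were above in both, 8 were above unthinned and divided at 10000 UMIs, and 1, Hes1 with Hey1 in nephron progenitors, was below unthinned and above at 10000 UMIs.

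Cdh6 Osr2 cells had the fullest pattern, with 14 of 15 pairs assessed and all 14 above. Hes5 and Hey1 were found together in 87 and 31 cells, where the product gave 51.0 and 16.4, ratios of 1.71 and 1.89. Hes5 and Nrarp, whose promoters are given above, were found together in 99 and 36 cells against 62.4 and 22.9 (ratios 1.59 and 1.57). With every cell at 10000 UMIs, Nrarp was seen in 54.7% and 47.6% of the cells with Hes5 and in 20.4% and 27.5% of those without, and the ratios were 2.04 and 1.62. Hey1 with Nrarp gave ratios of 1.40 and 1.25 unthinned and 1.41 and 1.38 at 10000 UMIs. Hes1 with Heyl was closest to the product, at 1.01 and 1.06. Tfap2b Irx cells, where Hes5 is scarce, had 7 pairs above and 2 divided, with Hes5 and Nrarp together in 13 and 10 cells against 7.81 and 5.26. Both genes are near or below the level of near-empty barcodes in this class: Nrarp had 7.31 and 10.8 CPM there against 11.8 and 19.1. The part of free RNA in these pairs was not tested.

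Early nephron, where most cells hold several targets, was more mixed. There all 15 pairs were assessed: 5 were above, 1 was below and 9 were divided. Hes5 with Nrarp was above (45 and 25 cells against 33.3 and 20.2, ratios 1.35 and 1.24), as were Hey2 with Heyl (1.32 and 1.17) and Hey1 with Heyl (1.17 and 1.12). Hes5 with Heyl was slightly below, at 34 and 19 cells against 35.1 and 19.2. Hes5 and Hey2 went opposite ways in the libraries, with 8 cells against 14.2 in replicate 1 and 9 against 8.53 in replicate 2. At 10000 UMIs, 2 pairs were above and 6 divided in early nephron, and Hey1 with Heyl was again above (1.28 and 1.64).

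In pericytes, all 8 assessed pairs were above. With 10 depth bins 7 of them were above and 1 divided, and under the stricter gate 6 were above, 1 below and 1 divided. Hey2 with Nrarp had the largest ratios of any combination assessed unthinned, 13 and 11 cells against 5.64 and 5.21 (2.30 and 2.11). Nrarp had 17.0 and 12.4 CPM in pericytes, against 11.8 and 19.1 CPM in near-empty barcodes. The part of free RNA in the pericyte pairs with Nrarp was not tested. Hey2 with Heyl gave 34 and 39 cells against 25.6 and 31.6, and Heyl with Nrarp 32 and 23 cells against 24.6 and 17.2. At 10000 UMIs, Hey2 with Heyl was above with 1.35 and 1.48, and Hey2 with Nrarp fell under the limit for assessment. In renin cells Hey2 with Nrarp was above as well, with 8 and 20 cells against 6.20 and 16.0 (1.29 and 1.25), in 25 and 37 cells in all.

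Other classes had single pairs that stood out. Podocytes had Hey1 and Heyl together in 16 and 11 cells against 9.77 and 7.18 (1.64 and 1.53). Heyl had 5.30 and 6.75 CPM in podocytes, below the 13.9 and 15.2 CPM of near-empty barcodes. Arterial endothelial cells had Hey1 and Hey2 together in 13 and 11 cells against 7.23 and 8.32 (1.80 and 1.32). Nephron progenitors had Hey1 and Heyl together in 68 and 47 cells against 52.7 and 39.2 (1.29 and 1.20). Hey1 had 8.66 and 9.13 CPM in them, close to the 10.7 and 7.12 CPM of near-empty barcodes. The part of free RNA in the podocyte and progenitor pairs was not tested. Pairs with Hes1 lay near the product in most classes. Unthinned, Hes1 was seen in most cells of many classes, and the product is then close to the other gene's own count. The other combinations below the product were Hes1 with Hey1 in nephron progenitors (78 and 55 cells against 79.1 and 55.4, but above at 10000 UMIs with ratios of 1.03 and 1.29) and in collecting duct (12 and 5 against 12.3 and 6.19).

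Across the 19 classes, Pearson correlations between the members' mean log2(CPM + 1) profiles ran from 0.07 for Hes5 with Hey2 to 0.57 for Hes5 with Hey1. Hes1 with Nrarp gave 0.54, Hey2 with Nrarp 0.53 and Hey2 with Heyl 0.52. These are descriptions over 19 classes of the same 2 libraries. Among 11749 other genes with at least 20 CPM in some class, those with the most similar profile to Hes1 were Nbea, Limch1 and Sorbs2 (0.88, 0.87 and 0.84). For Hes5 they were Trim9, Oxtr and Greb1 (0.85, 0.81 and 0.80), all with their top level in early nephron. For Hey1 they were Reep2, Oxtr and Zdbf2 (0.86, 0.86 and 0.82). Hey2 was most like Gm30003, Rergl and Pcp4l1 (0.90, 0.89 and 0.89), all highest in renin cells. Heyl was most like Pard6g, Mark1 and Gpc6 (0.84, 0.81 and 0.81). Nrarp was most like Emid1, the Notch ligand Jag1 and Pde4a (0.74, 0.73 and 0.71), the lowest likeness of the 6 members.

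Rbpj itself was found in all 19 classes, from 17.7 and 9.04 CPM in erythroid cells to 799 and 383 CPM in immune cells. In early nephron it had 96.1 and 79.4 CPM and in stroma 77.2 and 64.0 CPM. Only the 3' ends of transcripts were read, and whether they lie in the conditional part of the allele is not given, so these levels do not check the genotype. In the comparisons Rbpj passed once, in proximal tubule against Cdh6 Osr2 cells (log2FC -0.44 ± 0.18, edgeR adjusted p = 0.048). Foxd1, whose promoter drives the Cre and which is also a stroma gate marker, had 95.9 and 117 CPM in stroma, 173 and 164 CPM in podocytes, 34.8 and 29.5 CPM in nephron progenitors and 19.2 and 37.5 CPM in pericytes.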

How the data were processed

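Kidney cells were captured with the 10X Chromium platform and sequenced from the 3' end of each cDNA, per the labels' protocols. The deposited values are raw UMI counts per gene and barcode, not normalized, made with Cell Ranger 4 per the file headers and with Cell Ranger 6.0.1 on mm10 per the submitters' processing notes, which disagree. The strand setting of the counting is not given in the sources used here. The members and the marker and pathway lists were chosen with earlier results of these data known.

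Barcodes with at least 3000 UMIs, 500 genes and at most 20% mitochondrial UMIs were kept. Totals were 200331687 and 173166168 UMIs, of which kept cells held 73.1% and 74.5%. A cell entered a class when its score, the mean over the class's markers of log2((CPM + 50) / (near-empty CPM + 50)) with negative terms set to 0, was at least 1, with at least 3 UMIs from 2 markers. Cells in which an unrelated class scored more than 0.5 of the top score were set aside as possible doublets. No doublet caller was used in the main analysis. Arterial cells were gated within endothelial cells and renin cells within pericytes and smooth muscle.

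The counts of each class were added up within each library and fitted across all genes with edgeR 4.0.16 (limma 3.58.1, R 4.3.3): 38 sums of 19 classes, trimmed-mean scaling, filterByExpr (17417 genes kept), 18 residual degrees of freedom, two-sided quasi-likelihood F tests. The p-values are judged against the disagreement between the 2 libraries within classes, pooled over classes after a common library difference was removed. The library was a block because sums of 1 library come from 1 suspension: over 171 pairs of classes, deviations of the same library correlated with a median r of 0.14 (0.00 to 0.34). The fit was also run on simulated counts, drawn independently with a fixed spread and no library effect. Such counts could not check the block or the correlation within a library. Named pathway genes are up to 4 per comparison with the largest absolute change past the threshold and 1 direction in both libraries. Alternatives were 6000 UMIs, a gate score of 2, Scrublet (the highest 0.8% per 1000 cells removed), other scaling, filters, designs and DESeq2 1.42.0, other thinning depths, and single libraries. Urothelium (17 and 11 cells) and glial gates (3 and 1 cells) were too small to compare. Python 3.11.15, numpy 2.4.6, scipy 1.17.1, pandas 2.3.3, scanpy 1.11.5, anndata 0.12.19 and matplotlib 3.10.9 were used.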

Additional observations from a re-analysis of the deposited data

Results flagged for a closer look

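Cells gated as urothelium, the lining of the collecting system, were too few for any comparison, with 17 cells in replicate 1 and 11 in replicate 2. Hes1 and Nrarp in them were above the mean of the 19 compared classes in both libraries, which is why they are given here. Hes1 stood at 285 CPM (107 UMIs) in replicate 1 and 195 CPM (63 UMIs) in replicate 2, against class means of 142 and 118 CPM. Nrarp stood at 93.3 CPM (35 UMIs) in replicate 1 and 30.9 CPM (10 UMIs) in replicate 2, against 19.8 and 24.7 CPM. Hes5, Hey1, Hey2 and Heyl had 0 UMIs in these cells in both libraries. With groups of 2 libraries no search for outlying samples was possible.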

How the results depend on the processing

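The count of 41 calls in 66 member tests was 40 with DESeq2, 41 with RLE size factors, with Scrublet doublets removed, at 6000 UMIs, with no filter and (chosen after seeing the data) without erythroid sums, 42 of 57 with only the classes compared in the fit, and 34 of 60 under the stricter gate, where collecting duct against ureteric tip could not be fitted. Without the replicate block it was 39: the block decided the calls of Hes1 and Nrarp in collecting duct, and no other call changed. Nrarp there also missed the threshold with Scrublet doublets removed (adjusted p = 0.0518) and with DESeq2 (adjusted p = 0.0852), where edgeR gave 0.0396. All 41 calls had the same direction in each library alone, and no alternative reversed a call. With 1 library there are no replicate sums, so its values carry no test. The main fit called 8.37% to 52.7% of all genes per comparison, and this share was not determined for the alternatives.

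Combinations of gene and class at 20 CPM or more in both libraries numbered 33, and 33 to 36 over the alternatives, or 34 to 37 from 1 library. Those with at least 10% of cells positive numbered 25 at 3000 UMIs, 35 at 10000 UMIs and 51 unthinned. Classes with at least 10% of cells holding 2 or more targets numbered 4 at 3000 UMIs, 3 with cells of at least 6000 UMIs and 3 with another random thinning, both without arterial endothelial cells, 12 at 10000 and 14 unthinned. Pairs above the product numbered 1 at 3000 UMIs, 0 with cells of at least 6000 UMIs, 0 under the stricter gate, 2 with another random thinning and 3 to 5 from 1 library. They numbered 26 at 10000 UMIs and 55 unthinned, and unthinned also 52 with 10 depth bins, 55 with cells of at least 6000 UMIs, 35 under the stricter gate and 51 with Scrublet doublets removed. Depth therefore sets how many pairs can be assessed, and most pairs fell under the limit for assessment at 3000 UMIs. No share for other gene pairs was determined in any of these settings. The alternatives at 10000 UMIs for shares and pairs, with 10 bins, unthinned and with another thinning for targets per cell, and unthinned under the other cell rules were chosen after seeing the data.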

Other observations

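Cells outside every gate, 953 in replicate 1 and 509 in replicate 2, held 19.3% and 9.03% of all Hey2 UMIs of kept cells and 11.9% and 7.51% of all Hey1 UMIs, but 1.46% and 1.51% of Hes5 UMIs. Their levels were 5.0 and 3.17 CPM for Hey2 and 20.7 and 15.1 CPM for Heyl. The 127 and 79 cells with markers of 2 unrelated classes had 3.44 and 5.79 CPM of Hes5 and 18.7 and 25.2 CPM of Nrarp.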
